A study of Mus musculus with 32 samples.

Results

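Brown adipose tissue was examined here through 44 genes that encode the machinery of triglyceride and phospholipid synthesis, from the making of glycerol-3-phosphate, through acylation and the coating of lipid droplets, to the branches that build membrane phospholipids. The genes were picked by name for their role in the pathway and then matched to the gene names printed in the array files. All 44 were on the array, 43 had a probe that passed the filter on dim spots, and Pcyt1b (the β form of the enzyme that makes CDP-choline) had none. These 43 were read against 24523 gene names that passed the same filter.

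RNA of brown adipose tissue was hybridized to 32 Agilent 1-colour arrays, 8 in each of 4 groups. Total ChREBP KO mice were Mlxipl-null and lacked both the α and β isoforms of ChREBP, a transcription factor that responds to glucose. ChREBPβ KO mice carried a CRISPR/Cas9 deletion of the exon used by the β isoform alone, made with 2 guide RNAs, and kept the α isoform. The study reports that α isoform mRNA and protein were raised in brown adipose tissue of such males. Each KO group was compared with the WT littermates of its own line, called total-line WT and ChREBPβ-line WT below. Per the study's methods the mice were C57BL6/J males; their ages are not given in the sources used here. All 4 groups were fasted for 24 h and then refed for 18 h with food and water holding 20% glucose, so no group shows the pathway without glucose refeeding. The KO was in every tissue, and the tissue was bulk, so fewer cells of a type and less RNA per cell cannot be told apart.

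Cells make triglyceride by adding acyl chains to glycerol-3-phosphate. GPAT enzymes attach the first chain and AGPAT enzymes the second, giving phosphatidate, lipins remove its phosphate to give diacylglycerol, and DGAT enzymes attach the last chain. Phosphatidate and diacylglycerol are also where membrane phospholipids branch off, toward cardiolipin through CDP-diacylglycerol and toward phosphatidylcholine and phosphatidylethanolamine through activated choline and ethanolamine. Brown adipocytes store triglyceride in many small droplets coated with perilipins, and their mitochondria are rich in cardiolipin.

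ChREBP binds DNA with its partner Mlx at pairs of E-boxes, so the promoters of the genes were searched for the E-box CACGTG, which reads the same on both strands, and for the carbohydrate response element, which joins a pair of E-box-like motifs and was searched on both strands. RefSeq windows of 300 bases, from 250 before to 50 after each start on build GRCm38.p6, were at hand for 36 of the 44 genes. The E-box was in the windows of 4 of the 36 genes (11.1%), Plin2, Lpin2, Lpin3 and Crls1, against 8.09% of 27025 genes with a promoter in the table. A gene can have several windows, and counted by window the shares were closer. The E-box was in 7.55% of the 53 windows of these genes, against 7.15% of 32851 windows overall. The carbohydrate response element was in 0 of the 53 windows, against 39 of the 32851 (0.119%). Lpin2 was called in neither KO and its stretch is not shown. For the other 3 genes, which were called in a KO, the stretches are shown 5′ to 3′ with the E-box in capitals. For Plin2 (chr4:86670050-86670199, minus strand) it began 4 bases before the start, for Crls1 (chr2:132846416-132846565, plus strand) 203 bases before, and for Lpin3 (chr2:160880580-160880699, plus strand) 22 bases after.
Plin2: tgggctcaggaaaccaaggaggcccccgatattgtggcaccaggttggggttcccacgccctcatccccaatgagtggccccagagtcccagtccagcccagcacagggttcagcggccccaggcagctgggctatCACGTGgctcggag
Crls1: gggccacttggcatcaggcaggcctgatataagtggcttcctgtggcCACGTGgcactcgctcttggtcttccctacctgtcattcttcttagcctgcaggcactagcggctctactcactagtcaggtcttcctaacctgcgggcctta
Lpin3: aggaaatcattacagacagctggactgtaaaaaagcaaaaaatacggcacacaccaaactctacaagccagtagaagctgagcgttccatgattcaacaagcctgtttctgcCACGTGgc
Plin2 fell in total ChREBP KO mice while Crls1 and Lpin3 rose, as given below. A link between the E-box and these changes was not tested. A match describes the letters only and says nothing about binding.

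Every level below is a quantile-normalized log2 intensity of a gene's brightest probe, so a difference of 1 is a 2-fold change, and a level is compared between groups but never between genes. Changes are log2 differences of group means ± SE from limma over all 32 arrays, and a gene is called at an adjusted p below 0.05 over all probes. Between 64.4% and 71.1% of spots on an array were well above background. Mlxipl itself was at 15.98 to 16.33 (median 16.16) in total-line WT mice and 13.49 to 13.91 (median 13.64) in total ChREBP KO mice, and at 16.15 to 16.55 (median 16.30) in ChREBPβ-line WT mice and 14.68 to 14.99 (median 14.85) in ChREBPβ KO mice. Neither KO group overlapped its WT group, with changes of -2.48 ± 0.07 (adjusted p = 2.02e-24) and -1.50 ± 0.07 (adjusted p = 7.09e-17). The position of this probe relative to the deleted sequences was not compared. All 10 brown adipose markers, Ucp1 among them, were well above background on every array, and their mean ran from 12.7 to 13.8 over the arrays. Single markers moved both ways: in total ChREBP KO mice 2 of the 10 were called lower and 4 higher, with changes from -3.16 to 2.19, and in ChREBPβ KO mice limma called 0. The arrays of the ChREBPβ line stood apart in skeletal muscle genes. The mean of 12 of these ran from 5.66 to 11.9 on them against 12.8 to 16.2 in the total line. The mean of 10 liver genes overlapped, at 6.19 to 13.3 against 6.19 to 11.3. In ChREBPβ-line WT against total-line WT mice all 10 liver genes were higher, by 0.88 to 2.42 on the log2 scale, and 1 was called. The median of their mean was 9.62 against 7.53 in these groups. Macrophage (4 of 4), white adipose (3 of 6, with 1 higher) and blood markers (2 of 4) were called lower there. Endothelium (3 of 4) and lymphocyte markers (2 of 4) were called higher. Brown adipose markers went both ways (4 of 10 lower, 2 higher).

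The first question was what loss of both isoforms did to the pathway. In total ChREBP KO brown adipose tissue 13 of the 43 genes fell (30.2%), 14 rose (32.6%) and 16 were not called, so the called changes were split between the directions. Among all gene names 21.1% were called lower and 22.9% higher in the same comparison. The counts rest on the brightest probe of a gene. They hold Gpam and Cds2 as lower and Agpat5 and Fitm2 as higher, although the sign differed between the probes of each, as given below. The median change of the 43 genes was -0.09 on the log2 scale, against 0.01 for all gene names, and the median size of change was 0.28 against 0.17. Changes of at least 1.5-fold were found for 4 genes that fell (Gpd2, Agpat2, Lpin1 and Plin2) and 4 that rose (Agpat9, Plin4, Chka and Crls1). For all gene names these shares were 5.30% and 4.84%. These genes were picked by their brightest probes, and Gpd1, Chpt1 and Lpcat3 also fell by at least 1.5-fold on their dimmer probes. KO and WT arrays did not overlap for 9 genes that fell and 9 that rose, against 8.42% and 8.16% of all gene names. Macrophage markers moved in the same comparison, with 4 of 4 lower (changes from -0.80 to -0.53), and their part in these counts was not tested. Of the 12 muscle genes and the 10 liver genes, limma called 0 in this comparison, with changes from -0.35 to 0.29 for muscle and from -1.88 to 0.60 for liver. With both list means as covariates all 27 called genes remained called. This is a weak check, as limma called 0 genes of either list here, and the macrophage mean was not a covariate.

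**Figure D1:**
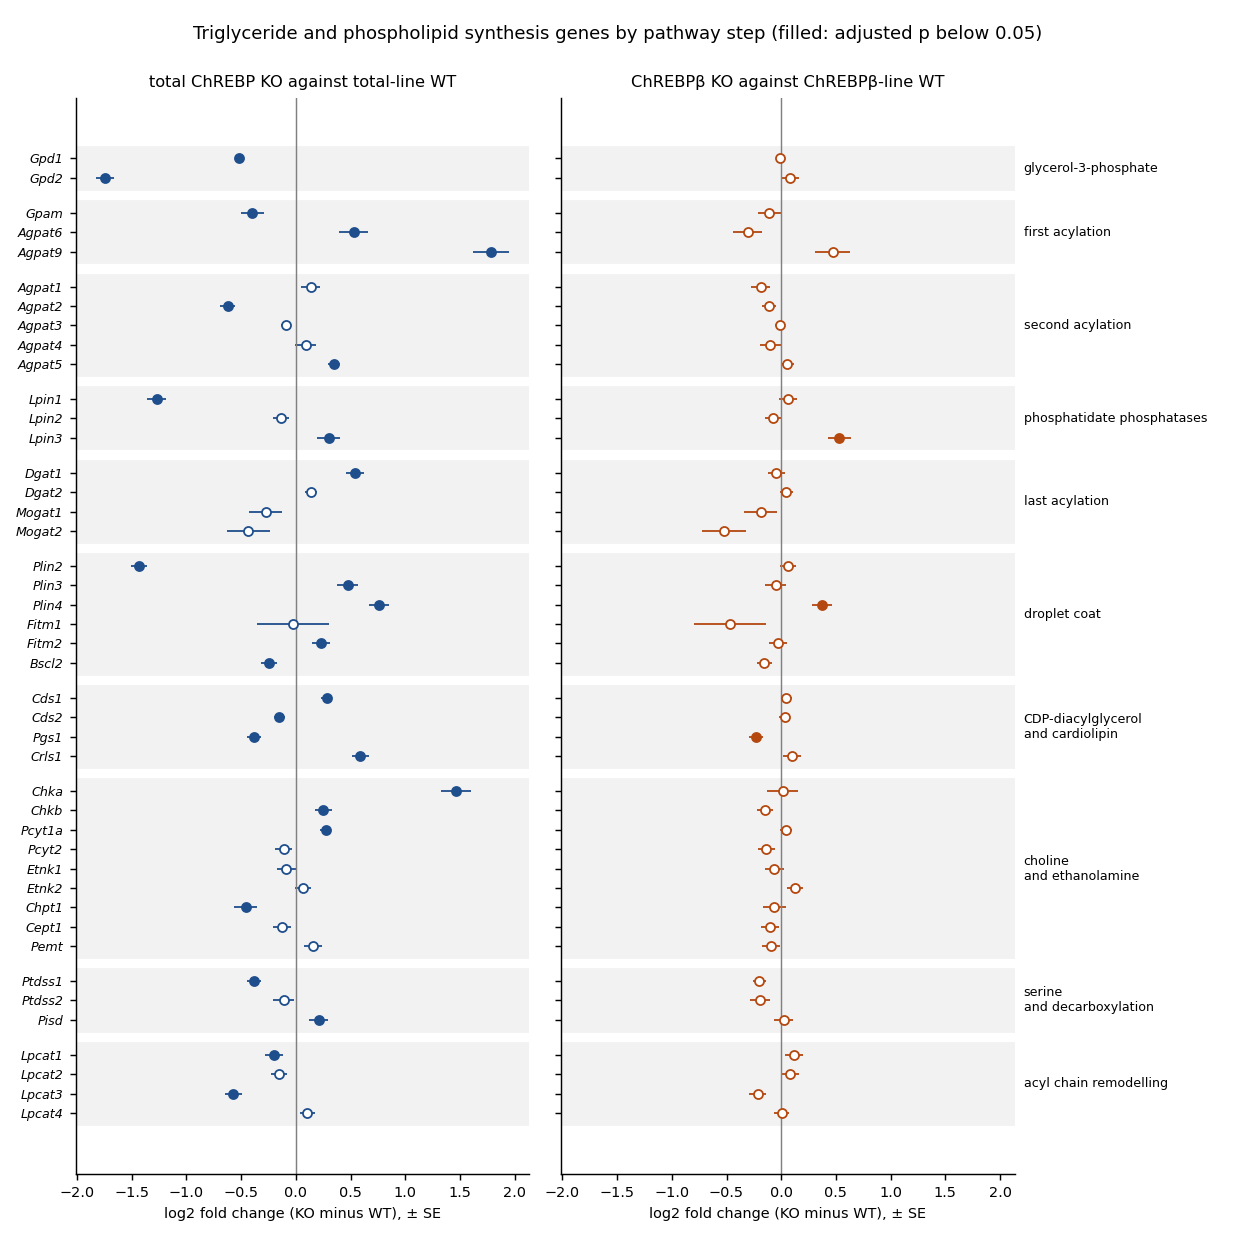
Log2 fold change (x axis, KO minus WT of the same line, bars ± SE) of the 43 genes, ordered by pathway step, in total ChREBP KO mice (left) and ChREBPβ KO mice (right). Filled points are called at an adjusted p below 0.05: 27 on the left, on both sides of 0 in 7 of the 10 steps, and 3 on the right.

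The second question was how much of this was also seen in mice lacking only the β isoform. In ChREBPβ KO tissue 1 of the 43 genes fell (Pgs1) and 2 rose (Lpin3 and Plin4), against 1.33% of all gene names called lower and 1.37% called higher. None of the 3 changed by 1.5-fold. KO and WT arrays did not overlap for 0 of the 43 genes in either direction, against 0.204% of all gene names lower and 0.228% higher. At an unadjusted p below 0.05 limma gave 11 of the 43 genes, and 3458 of the 24523 gene names. The median size of change was 0.10 on the log2 scale, against 0.07 for all gene names. The 12 muscle genes changed by -1.45 to -0.27 in this comparison, and 0 of them were called. The 3 genes remained called with the muscle and liver means as covariates.

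The 2 KO effects were then tested against each other, as the change in ChREBPβ KO minus the change in total ChREBP KO. They differed for 18 of the 43 genes, and in all 18 the larger change was in total ChREBP KO mice. For 11 of the 18 the difference was negative, against 13.0% of all gene names, and for 7 it was positive, against 12.2%. The 2 changes had opposite signs for 8 of the 18, and in those 8 genes the change in ChREBPβ KO mice was not called. Agpat5 is among the 18 on its brightest probe, while its difference was 0.040 with the mean over its probes.

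Both genes of glycerol-3-phosphate metabolism fell in total ChREBP KO mice, and neither was called in ChREBPβ KO mice. Gpd2, the mitochondrial glycerol-3-phosphate dehydrogenase that works with Gpd1 in the glycerophosphate shuttle, had the largest fall of the 43 genes. Gpd2 was at 14.63 to 15.18 (median 15.04) in total-line WT mice and 13.05 to 13.54 (median 13.32) in total ChREBP KO mice. The 2 groups were more than 1 log2 unit apart at their nearest arrays, with a change of -1.74 ± 0.08 (3.34-fold lower, adjusted p = 1.5e-17). Gpd2 was at 14.91 to 15.39 (median 15.09) in ChREBPβ-line WT mice and 15.02 to 15.44 (median 15.17) in ChREBPβ KO mice, which overlapped, with a change of 0.08 ± 0.08 (adjusted p = 0.764). Its probe lies at chr2:57222621-57222680 of mm9, the build of the array files, and a dimmer probe gave changes of -1.79 and 0.11.

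Gpd1, the cytosolic enzyme that makes glycerol-3-phosphate from the glycolytic intermediate dihydroxyacetone phosphate, was at 18.51 to 18.62 (median 18.59) in total-line WT mice and 17.95 to 18.25 (median 18.03) in total ChREBP KO mice. These groups did not overlap, and the change was -0.52 ± 0.04 (adjusted p = 4.3e-13). Gpd1 was at 18.59 to 18.62 (median 18.59) in ChREBPβ-line WT mice and 18.55 to 18.62 (median 18.59) in ChREBPβ KO mice, with a change of -0.01 ± 0.04 (adjusted p = 0.964). This probe is at the top of the intensity range, where quantile normalization hands out few distinct values, and 7 of the 8 ChREBPβ-line WT arrays share the value 18.59. The dimmer Gpd1 probe, away from that limit, was at 11.46 to 12.01 (median 11.76) in total-line WT mice and 10.36 to 10.63 (median 10.45) in total ChREBP KO mice. Its change there was -1.29 ± 0.09 (2.44-fold lower, adjusted p = 1.32e-13), and -0.26 ± 0.09 in ChREBPβ KO mice (adjusted p = 0.125). The direction was the same on both probes, and the size was not.

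Gpam, the mitochondrial GPAT of the first acylation, was called lower in total ChREBP KO mice on its brightest probe (-0.40 ± 0.11, adjusted p = 0.00254). Its other probe gave 0.25 ± 0.14 (adjusted p = 0.149), with all 8 KO arrays above the WT mean, and the call was lost with the mean over both probes, so no direction can be given for the gene. The 2 GPATs of the endoplasmic reticulum, listed in the files under their older names Agpat9 (now Gpat3) and Agpat6 (now Gpat4), rose. Agpat9 was at 10.61 to 12.23 (median 11.13) in total-line WT mice and 12.41 to 13.33 (median 13.05) in total ChREBP KO mice. No KO array was as low as the highest WT array, and the change of 1.78 ± 0.16 (3.44-fold higher, adjusted p = 8.7e-11) was the largest increase among the 43 genes. Agpat9 was at 10.79 to 11.50 (median 11.17) in ChREBPβ-line WT mice and 11.21 to 11.98 (median 11.65) in ChREBPβ KO mice. All 8 of those KO arrays were above the WT mean, but the groups overlapped and the change of 0.47 ± 0.16 was not called (adjusted p = 0.125). It was called with only the groups of the contrast in the fit, and also without total-line WT replicate 2. The adjusted p was as low as 0.0451 in these. The brightest Agpat9 probe lies at chr5:101328054-101328113 (mm9), and the other gave 1.94 and 0.47.

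Agpat6 rose in total ChREBP KO mice, and its change in ChREBPβ KO mice had the opposite sign without being called. Its levels were 13.54 to 14.25 (median 13.74) in total-line WT mice and 14.02 to 14.75 (median 14.39) in total ChREBP KO mice, with a change of 0.53 ± 0.13 (adjusted p = 0.00163). In ChREBPβ-line WT mice Agpat6 was at 13.33 to 14.30 (median 14.02) and in ChREBPβ KO mice at 13.24 to 14.02 (median 13.66), a change of -0.30 ± 0.13 that was not called (adjusted p = 0.279). The KO and WT arrays overlapped in both lines. The difference between the effects was -0.83 ± 0.19 (adjusted p = 0.00128), and all 3 Agpat6 probes gave that sign.

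Of the 5 genes for the second acylation, Agpat2 fell, Agpat5 rose on its brightest probe, and Agpat1, Agpat3 and Agpat4 were not called. Agpat2, whose loss in humans and mice causes lipodystrophy, was at 18.07 to 18.42 (median 18.21) in total-line WT mice and 17.25 to 17.79 (median 17.62) in total ChREBP KO mice. The groups did not overlap, and the change was -0.62 ± 0.07 (1.54-fold lower, adjusted p = 2.42e-09). Like that of Gpd1, this probe reads near the top of the intensity range, and several arrays share a value. The dimmer Agpat2 probe gave -0.94 ± 0.11 (1.92-fold lower, adjusted p = 2.18e-08). Agpat2 was at 18.09 to 18.25 (median 18.21) in ChREBPβ-line WT mice and 17.85 to 18.27 (median 18.10) in ChREBPβ KO mice, with a change of -0.11 ± 0.07 (adjusted p = 0.498). The ChREBPβ KO arrays spanned the WT range and reached below it.

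Agpat5, a family member found at mitochondria, gave different answers on its 2 probes. The brighter probe was at 10.11 to 10.47 (median 10.32) in total-line WT mice and 10.54 to 10.72 (median 10.68) in total ChREBP KO mice, a rise of 0.35 ± 0.06 (adjusted p = 4.28e-06) with no overlap. The dimmer probe was at 5.90 to 6.54 (median 6.28) and 5.47 to 6.22 (median 5.78), a change of -0.52 ± 0.10 that was called lower (adjusted p = 9.96e-05). The mean over both probes was -0.08, so no direction can be given for the gene as a whole. On the brighter probe Agpat5 was at 9.96 to 10.29 (median 10.21) in ChREBPβ-line WT mice and 9.99 to 10.36 (median 10.22) in ChREBPβ KO mice, with a change of 0.06 ± 0.06 (adjusted p = 0.757). Agpat1, with changes of 0.14 and -0.19 on its brightest probe, was called lower in ChREBPβ KO mice on its dimmer probe alone (-0.28 ± 0.08, adjusted p = 0.0424).

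The 3 lipins, phosphatidate phosphatases that give diacylglycerol, went separate ways. Lpin1, the main lipin of adipose tissue, was at 14.16 to 14.53 (median 14.36) in total-line WT mice and 12.79 to 13.28 (median 13.08) in total ChREBP KO mice. The groups were well separated, and the change was -1.27 ± 0.08 (2.42-fold lower, adjusted p = 4.95e-14). Lpin1 was at 14.14 to 14.59 (median 14.46) in ChREBPβ-line WT mice and 14.05 to 14.68 (median 14.51) in ChREBPβ KO mice, which overlapped almost wholly, with a change of 0.06 ± 0.08 (adjusted p = 0.839). All 4 Lpin1 probes were called lower in total ChREBP KO mice, by 0.26 to 1.40 on the log2 scale, and none in ChREBPβ KO mice. The brightest lies at chr12:16543023-16543082 (mm9).

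Lpin3, a lipin of low abundance in fat, was called higher in both KO groups. Its levels were 8.18 to 8.96 (median 8.65) in total-line WT mice and 8.71 to 9.04 (median 8.91) in total ChREBP KO mice, with a change of 0.30 ± 0.10 (adjusted p = 0.02). Lpin3 was at 8.56 to 9.13 (median 8.79) in ChREBPβ-line WT mice and 8.97 to 9.67 (median 9.26) in ChREBPβ KO mice, with a change of 0.53 ± 0.10 (1.44-fold higher, adjusted p = 0.003). The arrays overlapped in both lines, and the 2 changes were not shown to differ (difference 0.23 ± 0.15, adjusted p = 0.282). The call in total ChREBP KO mice was lost without total-line WT replicate 2, and within wash batches the change ran from -0.01 to 0.53. Lpin2 was not called in either KO.

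**Figure D2:**
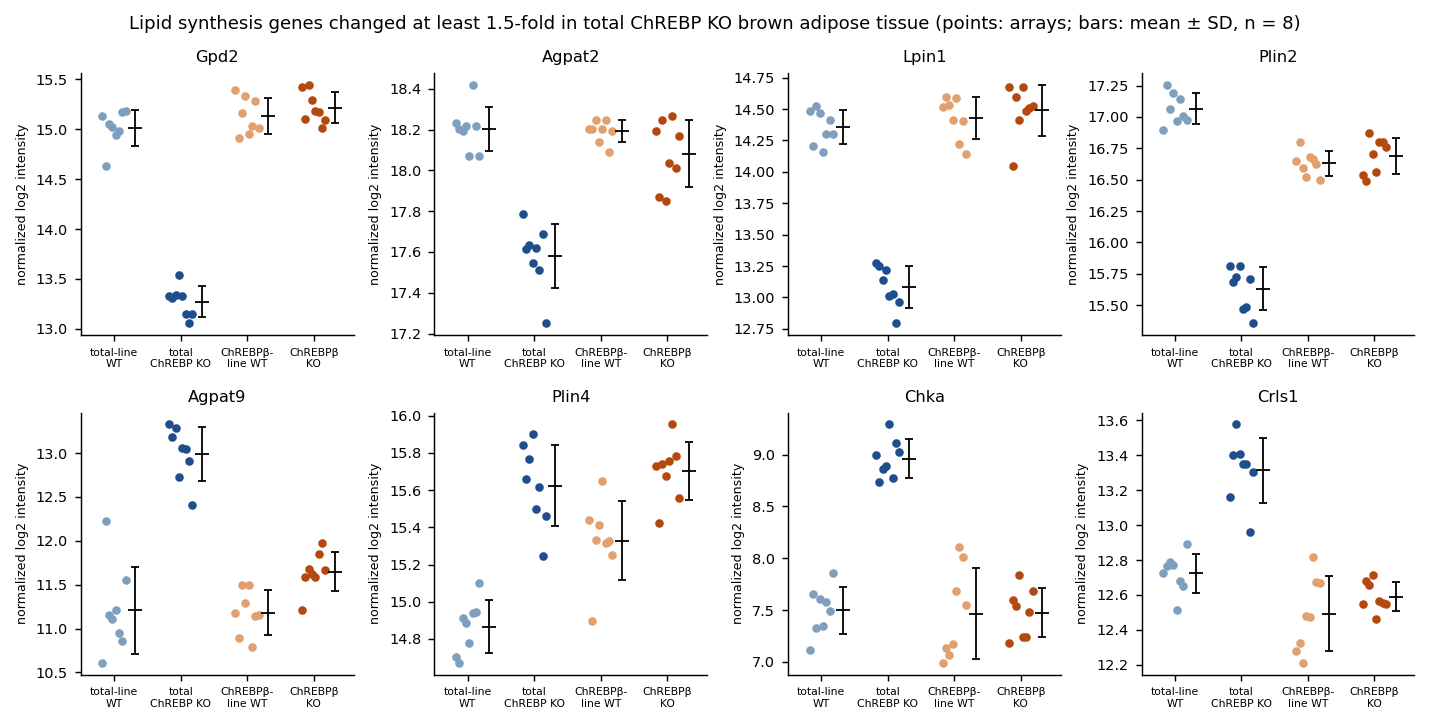
Normalized log2 intensity (y axis, a separate scale in each panel) of the 8 genes whose called change reached 1.5-fold in total ChREBP KO mice, for each array of the 4 groups, with the group mean ± SD beside the points. In all 8 panels the total ChREBP KO arrays lie clear of total-line WT arrays, while ChREBPβ KO arrays overlap their WT arrays.

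At the last acylation, Dgat1 rose in total ChREBP KO mice and Dgat2, Mogat1 and Mogat2 were not called on their brightest probes. Mogat1, a monoacylglycerol acyltransferase, changed by -0.28 ± 0.15 on that probe (adjusted p = 0.151), was called lower on its other probe (-0.46 ± 0.13, adjusted p = 0.00523), and was also called with the mean over both. DGAT1 and DGAT2 are unrelated enzymes for the same reaction, and DGAT2 is the one tied to newly made fatty acids. Dgat1 was at 12.46 to 13.00 (median 12.83) in total-line WT mice and 13.11 to 13.53 (median 13.36) in total ChREBP KO mice, which did not overlap, a change of 0.54 ± 0.08 (1.45-fold higher, adjusted p = 1.62e-06). Dgat1 was at 12.44 to 12.98 (median 12.78) in ChREBPβ-line WT mice and 12.50 to 13.01 (median 12.73) in ChREBPβ KO mice, with a change of -0.04 ± 0.08 (adjusted p = 0.898). Dgat2 changed by 0.14 ± 0.06 in total ChREBP KO mice (adjusted p = 0.0526) and 0.05 ± 0.06 in ChREBPβ KO mice (adjusted p = 0.824), and lay close to the threshold in the first. Dgat2 was called higher there with the deposited table, Agilent's processed signal, and the median signal scaled by the 75th percentile. The same held with the wash batch as a fixed block, the slide as a random block, and the mean over the probes of each gene. Dgat2 has 1 probe, so the last of these left its own values unchanged. It was also called without total-line WT replicate 2 or 6, total ChREBP KO replicate 4, ChREBPβ-line WT replicate 2, or ChREBPβ KO replicate 2 or 6.

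Mogat2, a monoacylglycerol acyltransferase of the gut, was at 9.10 to 10.63 (median 9.51) in total-line WT mice and 8.57 to 9.92 (median 9.05) in total ChREBP KO mice. Mogat2 was at 8.63 to 10.08 (median 9.67) in ChREBPβ-line WT mice and 8.60 to 9.44 (median 8.98) in ChREBPβ KO mice. Both pairs overlapped, and the changes of -0.43 ± 0.20 (adjusted p = 0.0798) and -0.52 ± 0.20 (adjusted p = 0.19) were not called. Without total-line WT replicate 1, or without total ChREBP KO replicate 7, the first of these was called, at an adjusted p as low as 0.0251. Without ChREBPβ-line WT replicate 7 the second was called.

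Droplet coat genes also moved in both directions. Plin2, Plin3 and Plin4 are perilipins that sit on the droplet surface, Fitm1 and Fitm2 help droplets form at the endoplasmic reticulum, and Bscl2 encodes seipin, which shapes the growing droplet. In total ChREBP KO mice Plin2 and Bscl2 fell and Plin3, Plin4 and Fitm2 rose. Plin2 was at 16.90 to 17.25 (median 17.04) in total-line WT mice and 15.35 to 15.81 (median 15.70) in total ChREBP KO mice, over 1 log2 unit apart at the nearest arrays. The change was -1.43 ± 0.07 (2.70-fold lower, adjusted p = 1.88e-17) on the brightest probe, at chr4:86302847-86302906 (mm9), and -1.33 on the other. Plin2 was at 16.50 to 16.80 (median 16.64) in ChREBPβ-line WT mice and 16.49 to 16.87 (median 16.73) in ChREBPβ KO mice, with a change of 0.06 ± 0.07 (adjusted p = 0.795). The 2 WT groups did not overlap either: Plin2 was lower in ChREBPβ-line WT than in total-line WT mice by 0.43 on the log2 scale (adjusted p = 7.6e-06).

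Plin4, which coats small new droplets, rose in both KO groups. Plin4 was at 14.67 to 15.10 (median 14.90) in total-line WT mice and 15.25 to 15.90 (median 15.64) in total ChREBP KO mice, with a change of 0.76 ± 0.09 (1.69-fold higher, adjusted p = 3.29e-08) and no overlap. Plin4 was at 14.90 to 15.65 (median 15.33) in ChREBPβ-line WT mice and 15.42 to 15.95 (median 15.73) in ChREBPβ KO mice, with a change of 0.38 ± 0.09 (1.30-fold higher, adjusted p = 0.0172). These overlapped, although all 8 KO arrays were above the WT mean. The rise was larger in total ChREBP KO mice, with a difference of -0.38 ± 0.13 (adjusted p = 0.0281). That call was lost without total ChREBP KO replicate 4, with Agilent's processed signal, and with the median signal scaled by the 75th percentile. The call in ChREBPβ KO mice was lost with Agilent's processed signal and with the slide as a fixed block. Plin4 also differed between the WT groups, by 0.46 ± 0.09 (adjusted p = 0.000141), and the median of ChREBPβ-line WT mice lay between those of total-line WT and total ChREBP KO mice. Plin3 rose by 0.47 ± 0.10 in total ChREBP KO mice (adjusted p = 0.000184) and changed by -0.05 ± 0.10 in ChREBPβ KO mice (adjusted p = 0.904).

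**Figure D3:**
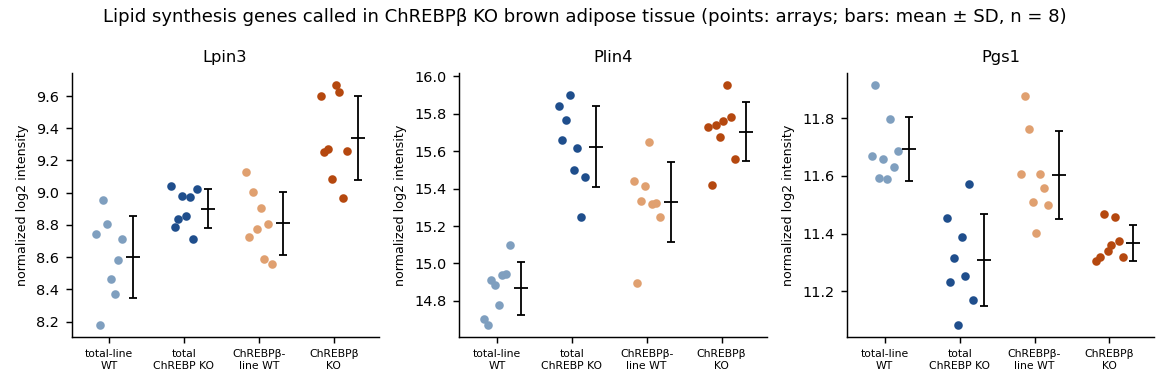
Normalized log2 intensity (y axis, a separate scale in each panel) of the 3 genes called in ChREBPβ KO mice, Lpin3, Plin4 and Pgs1, for each array of the 4 groups, with the group mean ± SD. Each KO group overlaps its WT group in the ChREBPβ line, with all 8 KO arrays on 1 side of the WT mean.

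Fitm1, the form of FIT protein found mainly in skeletal muscle, was not called in either KO and differed most of the 43 genes between the WT groups. It was at 7.46 to 10.33 (median 9.78) in total-line WT mice and 4.46 to 6.50 (median 5.17) in ChREBPβ-line WT mice, a difference of -4.00 ± 0.33 (adjusted p = 6.93e-11) with no overlap. Fitm1 was at 8.51 to 10.09 (median 9.33) in total ChREBP KO mice and 4.35 to 5.82 (median 4.80) in ChREBPβ KO mice, with changes of -0.03 ± 0.33 (adjusted p = 0.96) and -0.47 ± 0.33 (adjusted p = 0.609) against their WT groups. In ChREBPβ-line WT and KO mice it was well above background on only 5 and 4 of 8 arrays. The mean of the 12 muscle genes moved the same way, as given above, and all 12 were called lower, with log2 differences from -7.15 to -4.57. The part of muscle RNA in the Fitm1 difference was not tested. Fitm2, the form found more widely, rose by 0.23 ± 0.08 in total ChREBP KO mice (adjusted p = 0.0218) on its brighter probe, and its other probe gave -0.02 ± 0.13. The Fitm2 call was lost with Agilent's processed signal, with the median signal scaled by the 75th percentile, with the mean over both probes, and without total-line WT replicate 5.

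**Figure D4:**
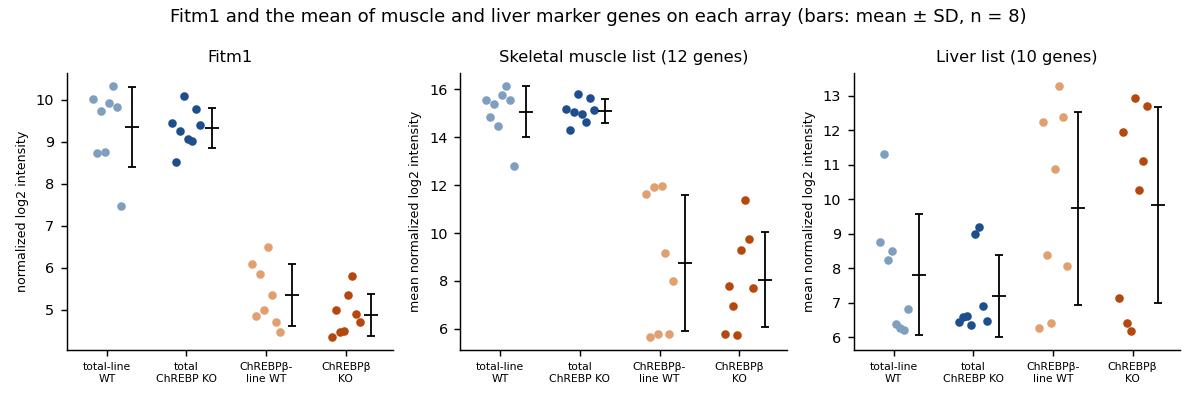
Normalized log2 intensity of Fitm1 (left) and the mean of 12 skeletal muscle (middle) and 10 liver genes (right) on each array of the 4 groups, with the group mean ± SD. Fitm1 and the muscle genes are lower on every ChREBPβ-line array than on the total-line arrays, and the liver genes vary among arrays of the same group.

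Of the 20 phospholipid genes with a usable probe, 6 fell, 6 rose and 8 were not called in total ChREBP KO mice, where 21.1% of all gene names fell and 22.9% rose. In ChREBPβ KO mice 1 of the 20 fell, against 1.33% of all gene names. In the branch to cardiolipin, Pgs1, which makes the phosphatidylglycerol phosphate that cardiolipin is built from, fell in both KO groups. Pgs1 was at 11.59 to 11.91 (median 11.66) in total-line WT mice and 11.08 to 11.57 (median 11.28) in total ChREBP KO mice, which did not overlap, with a change of -0.38 ± 0.06 (adjusted p = 1.16e-05). Pgs1 was at 11.40 to 11.88 (median 11.58) in ChREBPβ-line WT mice and 11.30 to 11.47 (median 11.35) in ChREBPβ KO mice, with a change of -0.23 ± 0.06 (adjusted p = 0.0439). All 8 ChREBPβ KO arrays were below the WT mean, and the call lay close to the threshold. It was lost on leaving out any of 11 arrays: total-line WT replicate 4, ChREBPβ-line WT replicates 1, 2, 3 and 6, and ChREBPβ KO replicates 1, 2, 4, 5, 7 and 8. It was also lost with Agilent's processed signal.

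Crls1, cardiolipin synthase, which completes the branch, moved the other way. Crls1 was at 12.52 to 12.89 (median 12.74) in total-line WT mice and 12.96 to 13.58 (median 13.35) in total ChREBP KO mice, with no overlap and a change of 0.59 ± 0.08 (1.51-fold higher, adjusted p = 2.28e-07). Crls1 was at 12.21 to 12.82 (median 12.48) in ChREBPβ-line WT mice and 12.46 to 12.72 (median 12.56) in ChREBPβ KO mice, with a change of 0.10 ± 0.08 (adjusted p = 0.673). Upstream, Cds1 and Cds2 encode the CDP-diacylglycerol synthases. Cds1 rose by 0.28 ± 0.05 (adjusted p = 2.17e-05) in total ChREBP KO mice. Cds2 fell by 0.15 on its brightest probe (adjusted p = 0.0165) but was called higher on its 2 dimmer probes, by 0.24 and 0.36, so no direction can be given for it.

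In the choline branch the first enzyme stood out. Chka, choline kinase α, was at 7.11 to 7.86 (median 7.54) in total-line WT mice and 8.73 to 9.29 (median 8.94) in total ChREBP KO mice. The groups did not overlap, and the change was 1.46 ± 0.14 (2.76-fold higher, adjusted p = 2.69e-10). Chka was at 6.99 to 8.11 (median 7.36) in ChREBPβ-line WT mice and 7.18 to 7.84 (median 7.51) in ChREBPβ KO mice, where the KO arrays lay within the WT range, with a change of 0.01 ± 0.14 (adjusted p = 0.988). All 3 Chka probes were called higher in total ChREBP KO mice, by 0.91 to 1.46, and none in ChREBPβ KO mice. The brightest lies at chr19:3893508-3893567 (mm9). Chkb, the second choline kinase, and Pcyt1a, which catalyses the limiting step of phosphatidylcholine synthesis, rose by smaller amounts in total ChREBP KO mice, 0.25 ± 0.07 (adjusted p = 0.00641) and 0.27 ± 0.05 (adjusted p = 7.9e-05).

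The last enzyme of that branch fell. Chpt1, choline phosphotransferase, was at 15.36 to 15.76 (median 15.42) in total-line WT mice and 14.70 to 15.23 (median 15.10) in total ChREBP KO mice, which did not overlap, with a change of -0.46 ± 0.11 (adjusted p = 0.000646). With the slide as a fixed block the change was -0.22 and the call was lost (adjusted p = 0.183). The dimmer Chpt1 probe was also called lower in total ChREBP KO mice, with a change of -0.66. Chpt1 was at 14.51 to 15.37 (median 15.05) in ChREBPβ-line WT mice and 14.60 to 15.37 (median 14.91) in ChREBPβ KO mice, with a change of -0.06 ± 0.11 (adjusted p = 0.885). The other 5 measured genes of the choline and ethanolamine branches were called in neither KO: Pcyt2, Etnk1 and Etnk2 of the ethanolamine branch, Cept1, which serves both branches, and Pemt, which methylates phosphatidylethanolamine to phosphatidylcholine, chiefly in liver. Their changes ran from -0.13 to 0.16 in total ChREBP KO mice.

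Ptdss1, which makes phosphatidylserine from phosphatidylcholine by base exchange, was at 11.06 to 11.49 (median 11.26) in total-line WT mice and 10.69 to 11.02 (median 10.90) in total ChREBP KO mice. The groups did not overlap, and the change was -0.38 ± 0.06 (adjusted p = 8.95e-06). Ptdss1 was at 11.04 to 11.37 (median 11.16) in ChREBPβ-line WT mice and 10.88 to 11.10 (median 11.01) in ChREBPβ KO mice, with a change of -0.20 ± 0.06 that was not called (adjusted p = 0.0868). All 8 of these KO arrays were below the WT mean, and without ChREBPβ-line WT replicate 5 it was called. Ptdss2 was called in neither KO. Pisd, the mitochondrial enzyme that turns phosphatidylserine into phosphatidylethanolamine, was at 10.87 to 11.25 (median 11.10) in total-line WT mice and 11.10 to 11.41 (median 11.35) in total ChREBP KO mice, a change of 0.21 ± 0.09 just inside the threshold (adjusted p = 0.0463). That call was lost on leaving out any of 11 arrays: total-line WT replicates 2, 5, 6, 7 and 8, total ChREBP KO replicates 1, 4, 5, 7 and 8, and ChREBPβ KO replicate 8. The dimmer Pisd probe was also called higher in total ChREBP KO mice, with a change of 0.40. Pisd was at 11.21 to 11.80 (median 11.52) in ChREBPβ-line WT mice and 11.26 to 11.82 (median 11.61) in ChREBPβ KO mice, with a change of 0.02 ± 0.09 (adjusted p = 0.962).

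Among the 4 lysophospholipid acyltransferases, which exchange acyl chains on finished phospholipids, Lpcat3 and Lpcat1 fell in total ChREBP KO mice and Lpcat2 and Lpcat4 were not called on their brightest probes. Lpcat2 changed by -0.15 ± 0.07 on that probe (adjusted p = 0.092) and was called lower on its other probe (-0.29 ± 0.08, adjusted p = 0.00484). It was also called with normexp background correction, with the mean over both probes, and without total-line WT replicate 6 or total ChREBP KO replicate 5. Lpcat3, which places polyunsaturated chains, was at 14.07 to 14.51 (median 14.31) in total-line WT mice and 13.37 to 13.97 (median 13.77) in total ChREBP KO mice, with no overlap and a change of -0.57 ± 0.08 (1.49-fold lower, adjusted p = 3.47e-07). Lpcat3 was at 14.07 to 14.37 (median 14.20) in ChREBPβ-line WT mice and 13.68 to 14.13 (median 14.04) in ChREBPβ KO mice, a change of -0.22 ± 0.08 that was not called (adjusted p = 0.153), although all 8 KO arrays were below the WT mean. With Agilent's processed signal it was called (adjusted p = 0.0471). The fall was larger in total ChREBP KO mice, with a difference of 0.36 ± 0.11 (adjusted p = 0.0164). The dimmer Lpcat3 probe was also called lower in total ChREBP KO mice, with a change of -0.64. Lpcat1, which favours saturated chains, was at 6.17 to 6.68 (median 6.32) in total-line WT mice and 5.95 to 6.31 (median 6.20) in total ChREBP KO mice, which overlapped, with a change of -0.20 ± 0.08 (adjusted p = 0.0444). Its call was lost on leaving out any of 8 arrays, total-line WT replicates 3, 4, 6 and 8 and total ChREBP KO replicates 2, 4, 6 and 8, and within wash batches the change ran from -0.31 to 0.03. The call was also lost with the median signal scaled by the 75th percentile and with no filter on dim probes. The other Lpcat1 probe changed by -0.09 there and was not called. Lpcat1 was at 6.31 to 6.89 (median 6.56) in ChREBPβ-line WT mice and 6.41 to 6.91 (median 6.75) in ChREBPβ KO mice, with a change of 0.12 ± 0.08 (adjusted p = 0.59).

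Several probes of a gene did not always read alike. Of the 27 genes with more than 1 usable probe, 20 had the same sign on all of them in total ChREBP KO mice. For 11 genes all probes were called in the same direction, and Agpat5 and Cds2 were called in both. Arrays were washed in 4 batches per the labels, and each batch held arrays of every group. Batches 1 and 3 held 1 ChREBPβ-line WT array each, batch 4 held 1 ChREBPβ KO array, and batch 2 held 1 total ChREBP KO array. A change within a batch can therefore rest on a single array of a group. Within each batch alone, the 8 genes changed by at least 1.5-fold kept their sign in total ChREBP KO mice, with Gpd2 from -2.00 to -1.46, Plin2 from -1.64 to -1.30, Agpat9 from 1.33 to 1.99 and Chka from 1.34 to 1.79. Of the 3 genes called in ChREBPβ KO mice, Lpin3 (0.29 to 0.94), Plin4 (0.19 to 0.81) and Pgs1 (-0.56 to -0.05) also kept their sign in each batch.

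A list of 43 further gene names of the same pathway was read in the same way. Some of the 43 are older and newer names of the same gene, and 36 names had a usable probe. In total ChREBP KO mice 11 of the 36 fell (30.6%, against 21.1% of all gene names) and 15 rose (41.7%, against 22.9%). In ChREBPβ KO mice 1 fell and 1 rose (2.78% each, against 1.33% and 1.37%). Acyl-CoA synthetases, which activate fatty acids for acylation, were among those that fell and those that rose. Acsl5, the synthetase with the largest change, was at 14.55 to 15.22 (median 14.81) in total-line WT mice and 10.85 to 11.81 (median 11.58) in total ChREBP KO mice, a change of -3.41 ± 0.21 (10.6-fold lower, adjusted p = 7.98e-15) with a wide gap between the groups. Acsl5 was at 13.16 to 15.01 (median 14.48) in ChREBPβ-line WT mice and 12.32 to 13.92 (median 12.99) in ChREBPβ KO mice, which overlapped, with a change of -1.27 ± 0.21 (2.42-fold lower, adjusted p = 0.000408). Acsl3 fell by 0.79 and Ppap2b, a phosphatase of lysophosphatidate and phosphatidate, by 0.62 in total ChREBP KO mice (adjusted p = 5.03e-06 and 1.36e-06).

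The 3 largest increases of that list were in Cideb, Gyk and Acsl1. Cideb, a droplet protein known mainly from liver, was at 8.88 to 10.14 (median 9.43) in total-line WT mice and 10.07 to 12.11 (median 11.38) in total ChREBP KO mice, with slight overlap and a change of 1.77 ± 0.22 (adjusted p = 9.14e-08). The median of the liver gene mean was 7.53 and 6.59 in the same groups, with ranges of 6.19 to 11.3 and 6.34 to 9.19, and the part of liver RNA in the Cideb change was not tested. Gyk, glycerol kinase, which makes glycerol-3-phosphate from glycerol, was at 12.01 to 13.45 (median 12.48) in total-line WT mice and 13.11 to 13.90 (median 13.43) in total ChREBP KO mice, which overlapped, with a change of 0.89 ± 0.18 (adjusted p = 0.000152). Acsl1, the main acyl-CoA synthetase of brown fat, was at 15.74 to 16.39 (median 15.88) in total-line WT mice and 16.62 to 16.75 (median 16.71) in total ChREBP KO mice, with no overlap and a change of 0.74 ± 0.08 (adjusted p = 1.94e-09). The WT groups also differed. Cideb was higher in ChREBPβ-line WT mice, at 10.30 to 11.36 (median 10.82), than in total-line WT mice. That difference was 1.28 ± 0.22 (adjusted p = 3.15e-05), with no overlap. For Gyk it was -0.78 ± 0.18 (adjusted p = 0.000878), and Acsl1 was not called. In ChREBPβ KO mice none of Cideb, Gyk and Acsl1 was called. The gene that rose there was Plin1, the perilipin of large droplets, by 0.23 ± 0.05 (adjusted p = 0.0173).

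The 2 WT groups were compared because each KO was read against its own line. Of the 43 genes 6 were lower in ChREBPβ-line WT than in total-line WT mice (Gpam, Agpat4, Plin2, Fitm1, Crls1 and Chpt1), against 14.1% of all gene names. Another 11 were higher (Agpat3, Lpin2, Plin3, Plin4, Cds1, Cds2, Pcyt1a, Etnk1, Pemt, Pisd and Lpcat1), against 24.8%. Fitm1 and Agpat4 (-0.64 ± 0.10, adjusted p = 3.69e-06) were the 2 with a difference of at least 1.5-fold. With the means of the muscle and liver genes as covariates the 11 higher genes became 4. Line, litter, housing and the RNA of muscle, liver or other cell types on the arrays cannot be told apart in this comparison.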

How the data were processed

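Total RNA of brown adipose tissue from 32 mice was labeled with Cy3 and hybridized to Agilent 1-colour arrays. The authors deposited Feature Extraction 10.10.1.1 files with spot intensities, of which the median over pixels was used, and a table of quantile-normalized log2 values. The intensities were processed here as the study's methods describe: of 59305 spots that are no control, 39985 were kept, each passing Agilent's flags (found, positive, significant, well above background) on 26 or more arrays in all or on 6 or more of a group. They were put on the log2 scale and quantile-normalized, and replicated spots were reduced to their median, giving 37306 probes. The result differed from the deposited log2 values by 0.00298 on average over 37304 probes. Arrays hold no counts, so no depth is given, and the number of arrays, dim or compressed probes and disagreement between probes limit the precision.

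Genes were named from the array files and represented by the kept probe with the highest mean. Group means were fitted over all arrays with limma 3.58.1 in R 4.3.3 (lmFit, contrasts.fit, eBayes, two-sided), with Benjamini-Hochberg adjustment over all probes. The procedure was tested on simulated data. Levels are given in every group for members called with at least 1.5-fold change in total ChREBP KO mice or called in ChREBPβ KO mice, and for the 2 with the largest change in each step, 20 in all, and for Fitm1, added after its values were seen. Of the other genes of the pathway, the 3 largest called decreases and increases are named, plus Plin1. The members, the other lists and the tests were chosen with earlier results of these data known. Groups and replicate numbers came from the labels, which do not say which arrays share a litter. Alternatives were other signals, scalings, filters, blocks, probe rules, thresholds and the omission of each array. Promoter windows were those of RefSeq on GRCm38.p6, and probe positions are on mm9.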

Additional observations from a re-analysis of the deposited data

Results flagged for a closer look

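For 6 of 80 group-by-gene sets of 8 arrays, the gap from the highest or lowest array to its neighbour was large for the range of the group. Chance gives about 1 in 20, for values that are not tied. In Gpd1 in ChREBPβ-line WT the gap was small (18.62, replicate 2, the other 7 at 18.59) and stood out only because quantile normalization tied the other arrays. The next were Gpd2 in total-line WT (14.63, replicate 2, next lowest 14.94) and Agpat2 in total-line WT (18.42, replicate 6, next highest 18.23). The others were Lpin1 in ChREBPβ KO (14.05, replicate 2, next lowest 14.41), Dgat1 in ChREBPβ-line WT (12.44, replicate 5, next lowest 12.73) and Mogat2 in total-line WT (10.63, replicate 2, next highest 9.81). Total-line WT replicate 2 is 2 of the 6, and its liver gene mean of 11.3 was the highest of that group. The part of liver RNA in these values was not tested.

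The KO effects differed between the lines, by the test of the difference itself, for 14 of the genes described in full. The change in ChREBPβ KO minus that in total ChREBP KO was 0.51 for Gpd1, 1.82 for Gpd2, 0.51 for Agpat2, 1.34 for Lpin1, 1.49 for Plin2, 0.32 for Lpcat1 and 0.36 for Lpcat3. It was -0.83 for Agpat6, -1.31 for Agpat9, -0.30 for Agpat5, -0.58 for Dgat1, -0.38 for Plin4, -0.49 for Crls1 and -1.45 for Chka.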

How the results depend on the processing

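The 8 genes changed by at least 1.5-fold in total ChREBP KO mice kept their direction and their call under all 45 alternatives that recomputed them, with Gpd2 from -1.80 to -1.71, Plin2 from -1.56 to -1.35, Agpat9 from 1.70 to 1.93 and Chka from 1.19 to 1.55. Gpd1 ranged from -0.90 to -0.36. With the mean over the probes of a gene Agpat5 turned to -0.082 in total ChREBP KO mice and its difference between the KO effects to 0.040. The count of genes called lower in ChREBPβ KO mice went from 1 to 0 with no filter on dim probes, with the wash batch as a fixed block, with the slide as a fixed or random block, with only the groups of the contrast in the fit, and at an adjusted p below 0.01. With Agilent's processed signal it stayed at 1, but Pgs1 lost its call and Lpcat3 gained one. The count called higher there went from 2 to 1 with Agilent's processed signal, where Plin4 lost its call. It went to 0 with the slide as a fixed block, and to 1 at an adjusted p below 0.01. With only the groups of the contrast in the fit, Agpat9 gained a call as higher. At a change of at least 1.5-fold the counts were 4 lower and 4 higher in total ChREBP KO mice, 0 and 0 in ChREBPβ KO mice, 6 for the difference between the effects, and 2 lower and 0 higher in ChREBPβ-line WT mice. With the muscle and liver means as covariates 4 were higher in ChREBPβ-line WT mice. Leaving out each array in turn gave 12 to 14 lower and 12 to 15 higher in total ChREBP KO mice, 0 to 2 and 2 to 3 in ChREBPβ KO mice, 16 to 21 for the difference, and 6 to 7 and 10 to 12 between the WT groups. The replicate numbers were not taken to pair the arrays, since not every same-numbered pair correlated above 0.1: 0 of 8 did in the total line (-0.30 to 0.08) and 6 of 8 in the ChREBPβ line (-0.20 to 0.53), and 0 and 1 of 8 correlated best with their own number. With the replicate block 13 genes were lower and 13 higher in total ChREBP KO mice, 1 and 2 in ChREBPβ KO mice, 21 for the difference, and 6 and 11 between the WT groups. With the slide as a fixed block 10 genes were lower and 13 higher in total ChREBP KO mice, where Lpin3, Bscl2, Cds2, Chpt1 and Pisd lost their calls and Agpat1 gained one. Pisd lost its call with the replicate block, as under 16 other alternatives. The difference call of Lpcat1 was lost under 19 of 44. The cause of these losses was not tested. With 8 arrays a group, a change that was not called is not shown to be absent.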
